A study of Mus musculus with 3 samples.

Results

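The miR-297, miR-466, miR-467 and miR-669 families are rodent repeat miRNAs, most of which lie in tandem within Sfmbt2, a Polycomb group gene of the mouse. They were followed here in mouse plasma after exercise. Members were all miRNA probes of the array with a name in one of these families, whichever arm of the hairpin was named. The rule reads names alone, but the families were picked for description with earlier results of these data known. The rule found 71 of 1900 miRNA probes, carrying 80 miRNA names. Of these probes 29 were for 3p arms, 30 for 5p arms and 12 for miRNAs named without an arm. There were 4 probes for the miR-297, 27 for the miR-466, 13 for the miR-467 and 28 for the miR-669 family, with 1 probe shared by miR-466m-5p and miR-669m-5p. In all, 7 probes named more than 1 miRNA.

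Plasma came from male C57BL/6 mice, an inbred laboratory strain, aged 8 weeks. One group had performed a single bout of aerobic exercise, one a single bout of resistance exercise, and the control group had been kept in normal cages. All animals were fasted overnight, and blood was drawn 3 h after exercise. Plasma of 3 mice, 100 µl each, was pooled per group and hybridised to 1 single-colour array, so each group had 1 pool and no replicate. No test between groups was possible and no p-value is given, and the spread between mice, pools and arrays is unknown. The exercise regimens are not given in the labels, and the series text names a human chip although the miRNA probes carry mouse names. A pool also cannot tell fewer releasing cells from less miRNA released per cell.

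Sfmbt2 is imprinted and expressed from the paternal copy in the mouse placenta and its precursors, and the miRNA cluster in its intron is needed for normal placental growth. Copies of the cluster's repeat unit gave rise to many near-identical hairpins, whose 5p arms are often rich in U and G and whose 3p arms are often rich in A and C. The miRNAs have been studied in other tissues too: miR-669a in heart progenitor cells, where it restrains the muscle factor MyoD, miR-467 as a repressor of thrombospondin-1 under high glucose, and miR-466h-5p as an inducer of apoptosis in cultured cells.

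RefSeq (GRCm38.p6) lists 82 genes with names of these families. Of these, 72 lie within Sfmbt2 (chromosome 2, 10370440 to 10595253), between positions 10466663 and 10518279, a stretch of 51617 bp with 0 other miRNA genes. The remaining 10 lie on chromosomes 3, 5, 7, 9, 10, 11 and 13. By name, 57 member probes had all of their genes within Sfmbt2 and 9 had all of them elsewhere. Another 5 probes, 2 of them with the name miR-297a and 3 with miR-466f, had genes in both places. A probe can stand for many copies: the miR-467a-3p probe had 10 genes and the probe of miR-669a-3p and miR-669o-3p had 13. miR-466a was matched to the gene listed as Mir466, without a letter.

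Mature sequences of 8 members were found in RefSeq (GRCm38.p6). They are printed because they show the U and G rich and the A and C rich kinds of sequence beside the detection of each. The first 4 are A and C rich, with 70.0 to 86.4% of these letters, and the last 4 are U and G rich, with 68.2 to 90.0% of those. miR-467h, miR-466k and miR-669n were added after their values were seen. Capitals mark the seed, bases 2 to 8, through which a miRNA finds the mRNAs it represses, and no 2 of the 8 shared a seed.
miR-466i-3p: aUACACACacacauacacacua
miR-467f: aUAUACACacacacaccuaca
miR-467g: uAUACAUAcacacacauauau
miR-466q: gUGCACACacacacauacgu
miR-467h: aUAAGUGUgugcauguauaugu
miR-466k: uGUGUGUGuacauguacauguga
miR-466j: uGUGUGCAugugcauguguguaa
miR-669n: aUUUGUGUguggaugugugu

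All 8 came from genes outside Sfmbt2. miR-466i-3p is at chr13:17747552-17747573 (plus strand) within Cdk13, miR-467f at chr11:69635419-69635439 (minus strand) within Fxr2, and miR-467g at chr5:34732872-34732892 (minus strand) within Grk4. On the plus strand of chromosome 3, miR-466q is at chr3:28419988-28420007 within Tnik, miR-669n at chr3:115979905-115979924 within Slc30a7, and miR-466k at chr3:85467396-85467418 within the long non-coding RNA gene Gm31419. miR-467h, at chr9:115381898-115381919 (plus strand), and miR-466j, at chr10:60960802-60960824 (plus strand), lie in no other listed gene. The table used does not tell exon from intron.

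The motif ACACACA was in all of the first 4 sequences and in 5 (0.298%) of 1679 mature mouse miRNAs in RefSeq, those 4 included. UGUGUGU was in 3 of the last 4 and in 11 (0.655%) of the 1679. These shares count the 8 printed sequences and lack those of the other members, so no rarity is read from them. CAUACAC, which can overlap ACACACA, was in miR-466i-3p and miR-467g, and in 0.476% of the 1679 with these included. Motifs were searched in the mature strand only. ACACACA is the reverse complement of UGUGUGU. Some members are also alike as targets for a probe, and others are not. Aligned without gaps, miR-467f and miR-467g matched at 17 of 21 bases, and miR-466k and miR-467h at 17 of 22. These were the pairs with the most matching bases among the 8 printed sequences. The fewest were 4 of 20, between the A and C rich miR-466i-3p and the U and G rich miR-669n. Cross-hybridisation between members was not tested, and probes of such alike sequences are not independent measurements.

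Detection was called for a raw intensity over the mean of the array's blank spots plus 2 SD. That threshold was 99.0 on the aerobic, 96.9 on the resistance and 94.8 on the control array. Members were detected less often than the array as a whole: 42 of 71 (59.2%) in aerobic, 42 (59.2%) in resistance and 45 (63.4%) in control plasma, against 71.8%, 72.2% and 75.3% of all 1900 probes in the same pools. All 3 arrays detected 38 members, no array detected 24, and 9 were detected on 1 or 2 arrays. The members carried 0.202% of the summed signal above background in the aerobic, 0.189% in the resistance and 0.178% in the control pool. Spots printed without a probe gave another view of background, and they differed between arrays: 4.02% of 174 such spots passed the threshold on the aerobic, 20.1% on the resistance and 78.7% on the control array. Detection counts of dim members in different pools are therefore not comparable at face value. Set 2 SD above those spots instead, 46 members in aerobic, 33 in resistance and 27 in control plasma of the 71 counted as detected, against 76.8%, 66.1% and 59.1% of all probes. The part of the unprobed spots in any count was not tested. The 16 spots named Negative Control 1 had mean raw intensities of 108.9 in aerobic, 106.9 in resistance and 104.8 in control plasma. These means lay above the detection threshold of each array and above the median member, at 102.3, 98.6 and 97.9. Detection here thus means signal above the blank spots and does not by itself show that a miRNA was present.

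**Figure D1:**
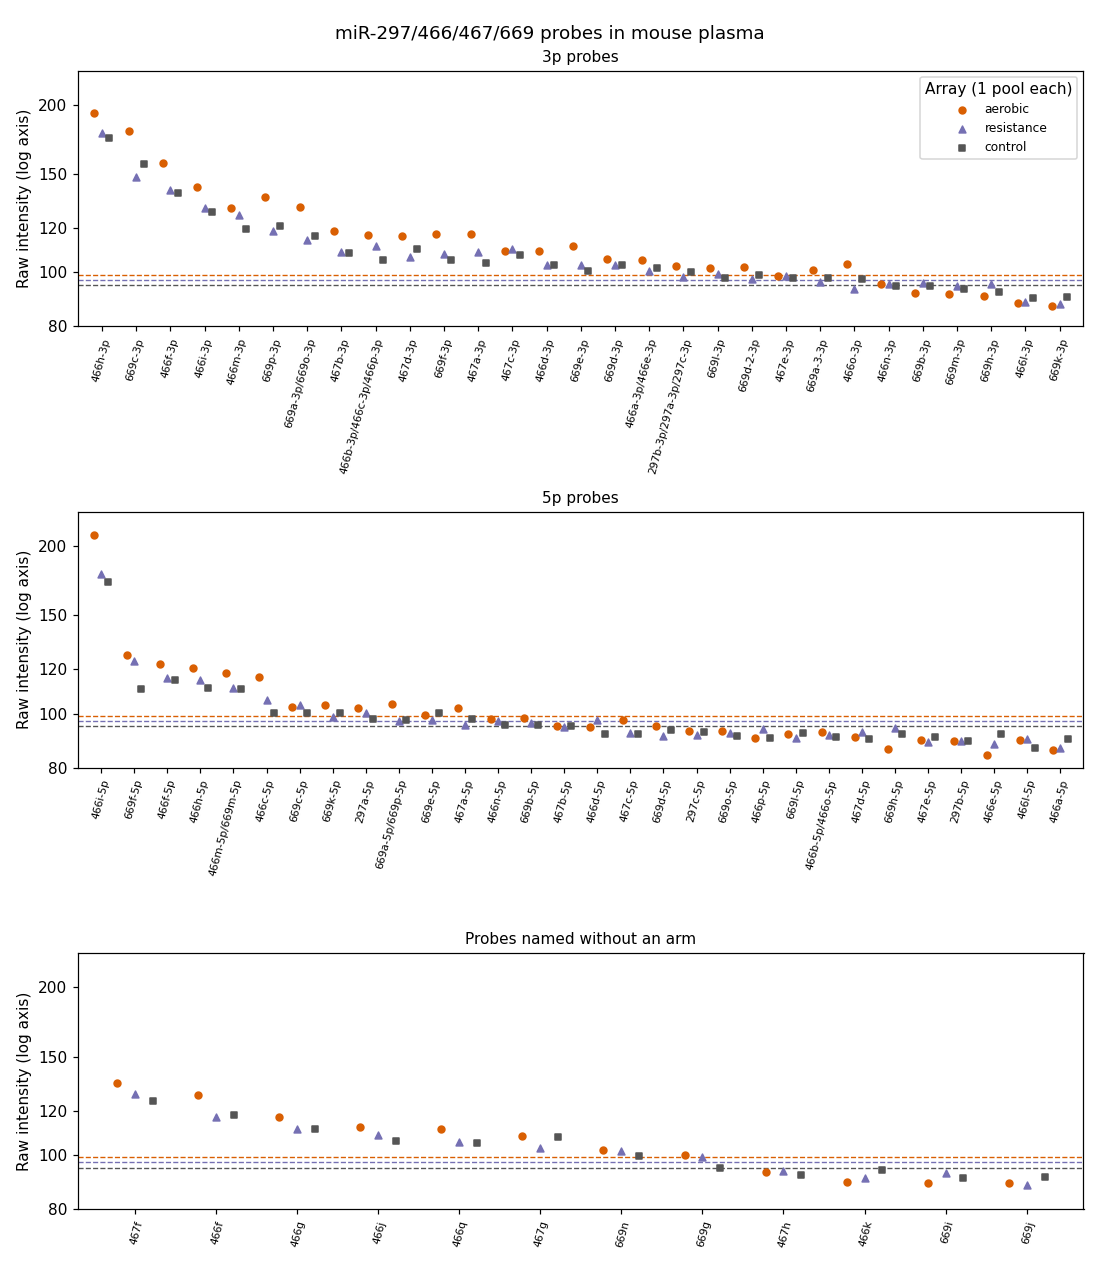
Raw intensity (log axis) of each member probe on the aerobic, resistance and control arrays, 1 pool each, sorted by mean normalized level within 3p probes, 5p probes and probes named without an arm; dashed lines are each array's detection threshold. Of the 30 5p probes 11 lie above the lines on all 3 arrays, while 20 of the 29 3p probes lie above them on all 3 arrays, and the highest spot is that of miR-466i-5p in the aerobic pool at 209.5.

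Detection differed by arm. Of the 29 3p probes, 22 (75.9%) were detected in aerobic, 21 (72.4%) in resistance and 23 (79.3%) in control plasma, close to the 73.2%, 72.7% and 76.1% of the 762 other 3p probes. Of the 30 5p probes, 12 (40.0%), 13 (43.3%) and 15 were detected in the same pools, against 71.8%, 73.9% and 76.8% of 755 other 5p probes. The lower share of the members thus came mainly from the 5p arm. Of the 12 probes named without an arm, 8 (66.7%), 8 (66.7%) and 7 (58.3%) were detected, against 71.2%, 69.9% and 72.4% of 312 other such probes. On all 3 arrays together 20 of 29 3p and 11 of 30 5p members were detected, against 69.3% of other 3p and 69.3% of other 5p probes.

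The members' 3p probes also passed other thresholds more often than their 5p probes. Measured against the spots without a probe, 16 of 29 3p members passed on all 3 arrays, as did 5 of 30 5p members and 6 of 12 without an arm. Other 3p probes passed at a share of 58.0%, other 5p probes at 60.7% and other probes without an arm at 59.9%. This threshold was higher than that of the blanks on the resistance and control arrays but lower, at 96.6, on the aerobic array. At 10 SD above the blanks, 7 members of the 3p, 2 of the 5p and 2 without a named arm passed on all arrays. That was 24.1% of the 3p and 6.67% of the 5p members, against 36.2% of other 3p and 48.7% of other 5p probes, so at this threshold both arms stood below other probes of their kind. Members without a named arm, at 16.7%, also stood below the 47.4% of other such probes. No set test was run on these counts, since members share sequence and the probes of an array are not replicates.

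**Figure D2:**
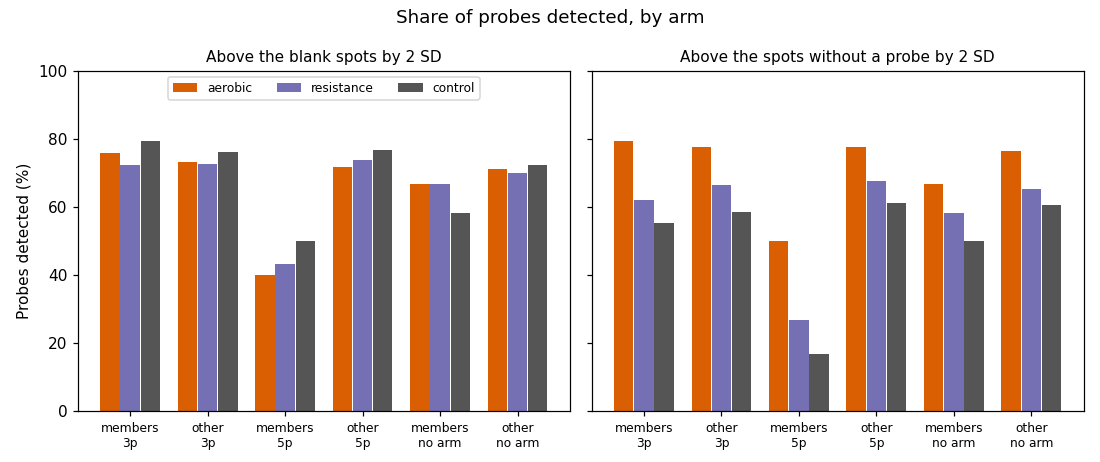
Percent of probes detected on the aerobic, resistance and control arrays for members and all other miRNA probes, by arm, with blank spots (left) or spots without a probe (right) as background. With blanks as background, 12 to 15 of the 30 5p members are detected, a lower share than that of the 3p members (72.4 to 79.3%) or of the other 5p probes (71.8 to 76.8%).

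Of the hairpins in these families, 33 had a probe for each arm. In 14 of them the 3p arm alone was detected in aerobic, in 14 in resistance and in 14 in control plasma. The 5p arm alone was detected in 2, 3 and 4 hairpins, and both arms in 12, 12 and 13. Neither arm was detected in 5, 4 and 2. miR-467c, miR-467d and miR-669d are examples of the 3p kind, and miR-669k of the 5p kind, with miR-669k-5p detected on all arrays and miR-669k-3p on none (these 4 were picked after their values were seen). Some hairpins share a probe, such as that of miR-297a-3p, miR-297b-3p and miR-297c-3p, so these counts are not independent.

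The sequences printed above cannot show an order of the U and G rich and the A and C rich kinds. Of the U and G rich ones, miR-467h, miR-466k and miR-669n were added after their values were seen. All 4 of the A and C rich miRNAs were detected on all 3 arrays. miR-467f stood at raw intensities of 134.6, 128.7 and 124.7 and miR-466i-3p at 142.4, 130.2 and 128.5 in aerobic, resistance and control plasma. Of the U and G rich ones, miR-466j and miR-669n were detected on all arrays, and miR-467h and miR-466k on none. miR-466k read 89.3 in aerobic, 90.9 in resistance and 93.8 in control plasma, near the blank means of 92.9, 93.3 and 92.0. Among 8 other miRNAs with UGUGUGU, 6 were detected on all arrays, including miR-574-5p at 140.8, 136.9 and 128.4 in the same pools. Of 7 other miRNAs with ACACACA or CAUACAC, 5 were detected on all arrays.

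By place in the genome, 26 of the 57 members within Sfmbt2 alone were detected on all arrays, as were 7 of the 9 members outside it and all 5 with copies in both. By family, 2 of 4 miR-297, 16 of 27 miR-466, 6 of 13 miR-467 and 15 of 28 miR-669 probes were detected on all arrays. The share over all 1900 probes was 68.2%. Another rodent miRNA cluster of early embryo and placenta, miR-290 to miR-295, had 12 of its 18 probes detected on all arrays, with raw intensities up to 386.0 in aerobic, 288.9 in resistance and 270.2 in control plasma. That was 66.7% of the probes of a cluster chosen as not due in male plasma, close to the share of all probes. A call of detection is therefore no proof of a placental miRNA in these pools.

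The brightest members were miR-466i-5p and miR-466h-3p. A spot's brightness also reflects how well its probe binds, so no ranking of plasma amounts is read from it. The raw intensity of miR-466i-5p was 209.5 in aerobic, 177.8 in resistance and 172.1 in control plasma. miR-466h-3p read 192.9, 177.5 and 174.2 in the same pools. On the control array miR-466i-5p lay at percentile 80.6 and miR-466h-3p at 81.3 of all miRNA probes. The median member read 102.3 in aerobic, 98.6 in resistance and 97.9 in control plasma, against 114.9, 109.1 and 107.3 for all probes in the same pools.

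miR-669c-3p read 179.2 in aerobic, 148.2 in resistance and 156.3 in control plasma. miR-466f-3p followed with 157.1, 140.3 and 138.8. The aerobic pool had the highest raw spot for each of these 4. This was so for 35 of the 38 members detected on all arrays, and for 86.2% of all 1296 probes detected on all arrays, so the raw order was that of the array as a whole.

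Among the other bright members, miR-466m-3p stood at 130.3 in aerobic, 126.7 in resistance and 119.8 in control plasma. miR-669f-5p, the second brightest 5p member, stood at 127.4, 124.2 and 110.8. Further 5p probes of note were miR-466f-5p (122.8, 115.9 and 115.1), miR-466h-5p (120.9, 115.0 and 111.3) and the shared probe of miR-466m-5p and miR-669m-5p (118.2, 111.1 and 110.7). These spots were above the detection threshold in all pools but far closer to it than the brightest ones.

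Among members named without an arm, miR-467f was followed by miR-466f (128.0 in aerobic, 116.9 in resistance and 117.7 in control plasma), miR-466g (116.7, 111.2 and 111.1), miR-466j (112.0, 108.6 and 106.1) and miR-466q (111.4, 105.4 and 104.9). By mean normalized level the highest probe of the miR-297 family, shared by the 3p arms of miR-297a, miR-297b and miR-297c, read 102.9, 98.0 and 100.2, close to miR-297a-5p at 102.3, 100.4 and 97.9, and 2 of the family's 4 probes were detected on no array.

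The first comparison asked whether the repeats stood at another level in plasma after aerobic exercise. The 41 members detected on both arrays had a median log2 difference, aerobic minus control, of 0.01, and that of all 1321 probes compared was 0.00. Differences are of log2 intensities that were background corrected with an offset of 50 and quantile normalized, and single members lay between -0.12 and 0.20. The limit set against them is 0.32, which is 2 SD of a difference between single spots as given by repeated bright spike-in spots. Of the 41 members 0 exceeded it in either direction, while 3.79% of all probes compared were higher and 2.04% lower by more than that. Of 875 compared non-members in the members' range of intensity, 2.06% exceeded it, a share at which fewer than 1 of 41 would do so. The count of 0 is thus no sign that the members were steadier than other dim probes.

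At least 2-fold higher were 0 members (0% of all probes) and at least 2-fold lower 0 (0.227%). The offset pulls differences of dim probes towards 0, so this count does not exclude changes near background. In direction, 26 of the 41 were higher, against 48.6% of all probes. With scaling to the median, and in the authors' normalized values too, 19 were higher and 22 lower, so no direction can be given. Of all probes 53.1% and 40.0% were higher in the same order. Without scaling all 41 were higher, as were 96.8% of all probes. By arm the medians were 0.02 for the 22 3p probes, 0.01 for the 12 5p probes and -0.01 for the 7 without an arm. Members within Sfmbt2 alone had a median of 0.02 (29 compared) and those outside it of 0.01 (7 compared).

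Values of the members farthest from 0 are given as a description. miR-466c-5p was highest against control, at 0.20, with raw intensities of 116.5 in aerobic and 100.4 in control plasma. miR-669f-5p followed with 0.14, miR-467a-3p with 0.14 (117.2 in aerobic and 103.8 in control plasma) and miR-669e-3p with 0.12 (111.3 and 100.4). On the lower side stood miR-467g at -0.12 (108.0 in aerobic and 107.8 in control plasma), miR-669e-5p at -0.10 (99.6 and 100.3), miR-466h-3p at -0.09 and miR-467c-3p at -0.09 (109.1 and 107.2). All 8 lay inside the spot scatter. Of the 4 on the lower side, 3 had the higher raw value in aerobic plasma, and without scaling the median of all probes stood 0.20 (log2) above control.

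Detected on 1 of these arrays alone were 1 member in aerobic and 4 in control plasma, against 43 and 110 of all 1900 probes. The largest lower bound on a difference was 1.03-fold higher for miR-669g (99.8 in aerobic and 94.5 in control plasma) and 1.03-fold lower for miR-467e-3p, both within spot scatter. The raw intensity of miR-467e-3p was 98.6 in aerobic and 97.5 in control plasma, so its direction holds after scaling only. For 3 of the 4 members detected in control plasma alone, miR-466n-5p among them, no bound above 1 was possible.

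**Figure D3:**
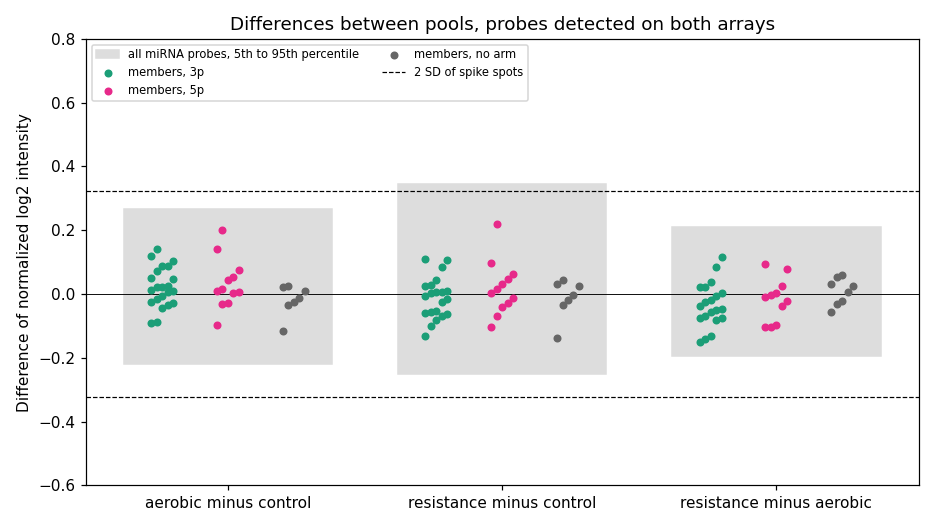
Difference of normalized log2 intensity for members detected on both arrays of each comparison, by arm, with the 5th to 95th percentile of all miRNA probes compared (grey) and 2 SD of the difference between spike-in spots (dashed, 0.32 either way). No member crosses a dashed line, and the one farthest from 0 is miR-669f-5p at 0.22 for resistance minus control.

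After resistance exercise, too, no member differed from the caged pool by more than spot scatter on the offset scale. The median log2 difference of the 40 members compared rounded to 0.00, and that of all 1336 probes was -0.01. Of the members 20 were higher and 20 lower, against 44.2% of all probes higher. The split was 17 to 23 with scaling to the median, 27 to 13 without scaling and 15 to 25 in the authors' normalized values. Over all probes 39.1%, 53.6% and 33.5% were higher under the same settings, against 42.5%, 67.5% and 37.5% of members. Of the 40 members 0 were beyond the spike limit, where 5.61% of all probes were higher and 3.22% lower, and 3.12% of 929 non-members of like intensity exceeded it in either direction. At least 2-fold higher were 0 members (0.225% of all probes) and at least 2-fold lower 0 (0.0749%). Here too the offset pulls differences of dim probes towards 0, so these counts do not exclude changes near background. With blank subtraction 13 of the 40 members (32.5%) lay beyond the spike limit, against 34.3% of all probes. Medians by arm were -0.01 for 21 3p probes, 0.01 for 12 5p probes and -0.004 for 7 without an arm.

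miR-669f-5p had the largest difference, at 0.22, with raw intensities of 124.2 in resistance and 110.8 in control plasma. It was above the 10 SD threshold in both. The probe of miR-466b-3p, miR-466c-3p and miR-466p-3p stood at 0.11 (111.7 in resistance and 105.4 in control plasma), miR-466m-3p at 0.11 and miR-466c-5p at 0.10 (105.7 and 100.4). On the lower side miR-467g stood at -0.14 (102.8 in resistance and 107.8 in control plasma), miR-669c-3p at -0.13, miR-669e-5p at -0.10 (97.2 and 100.3) and miR-467d-3p at -0.10 (106.6 and 110.2). Each of these was inside the spike limit. The difference of miR-669f-5p was 1.16-fold on this scale and 0.62 (log2) in the authors' normalized values.

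Detected on 1 array alone were 2 members in resistance and 5 in control plasma, against 36 and 95 of all probes. miR-669g was at least 1.06-fold higher and miR-466d-5p at least 1.03-fold higher (97.4 in resistance and 91.9 in control plasma). miR-467a-5p (95.4 and 97.6) and miR-669a-3-3p (96.3 and 97.5) were each at least 1.03-fold lower. These bounds lay within spot scatter.

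Between the exercise pools the result depended on the processing. On the offset scale the 39 members compared had a median of -0.02 (log2, resistance minus aerobic), and all 1307 probes one of -0.01. Of the members 15 were higher and 24 lower, against 46.6% of all probes higher. Without scaling, which moved the median of all probes to -0.19, all 39 members were lower, and only 4.90% of all probes were higher. Beyond the spike limit were 0 members, against 1.91% of all probes higher and 1.3% lower, and 1.43% of 906 non-members of like intensity either way. At least 2-fold higher were 0 (0.153% of all probes) and at least 2-fold lower 0 (0%). The 3p median was -0.04 (20 probes, 14 of them lower) and the 5p median -0.01 (11 probes, 7 of them lower). Members without an arm had a median of 0.02 (8 probes, 5 of them higher). The medians of other 3p and other 5p probes were both -0.01. In the authors' normalized values the 3p median was -0.30, that of all members -0.18 and that of all probes -0.04. There 13 of 39 members (33.3%) were lower by more than 0.32, against 16.2% of all probes. With blank subtraction the medians were -0.17 for members and -0.03 for all probes, and 10 of 39 members (25.6%) were lower by more than 0.32, against 14.8% of all probes. With an offset of 0 these shares were 7.69% and 7.80%. The limit of 0.32 comes from bright spots on the offset scale. The median member was dimmer than the median probe, at 98.6 against 109.1 in resistance and 102.3 against 114.9 in aerobic plasma. No share of non-members of like intensity is given on these other scales, so no effect on the members is read from these counts.

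The 3 lowest members after resistance relative to aerobic exercise were of the miR-669 family, but so were miR-669c-5p and miR-669f-5p among the highest. This family gave 16 of the 39 members compared, with a median of -0.03, against -0.02 for all members. The probe of miR-669a-3p and miR-669o-3p stood at -0.15 (114.2 in resistance and 130.8 in aerobic plasma), miR-669c-3p at -0.14 (148.2 and 179.2), miR-669p-3p at -0.13 (118.6 and 136.5) and miR-466c-5p at -0.10 (105.7 and 116.5). miR-467c-3p was highest, at 0.12 (110.3 in resistance and 109.1 in aerobic plasma), followed by miR-669c-5p at 0.10 (103.6 and 102.8), miR-466m-3p at 0.09 and miR-669f-5p at 0.08. All lay inside the spike limit. The arms of miR-669c thus stood on opposite sides of 0, each within spot scatter. Of members detected on 1 of these arrays, 3 were in resistance and 3 in aerobic plasma, against 65 and 57 of all probes. miR-466o-3p (93.5 in resistance and 103.7 in aerobic plasma) was at least 1.06-fold lower, miR-467a-5p at least 1.04-fold lower (95.4 and 102.4) and miR-467e-3p at least 1.03-fold higher (98.7 and 98.6). These bounds lay within spot scatter. The raw values of miR-467e-3p were nearly equal, and the thresholds were 96.9 in resistance and 99.0 in aerobic plasma, so no direction is read for it.

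In the authors' normalized values 1 member reached a log2 difference of 1 or more in each comparison, as it did with blank subtraction, while with normexp at an offset of 0 the count was 0 in each. The share of members past 2-fold in the authors' values was 2.44% for aerobic minus control, 2.50% for resistance minus control and 2.56% for resistance minus aerobic, against 2.27%, 2.92% and 2.30% of all probes. miR-466c-5p was 2.03-fold higher in aerobic than in control plasma, at 14.2 and 7.0 on the authors' scale, where the median detected miRNA is 25. miR-669e-5p was 2.26-fold lower in resistance than in control plasma, at 3.1 and 7.0. The probe of miR-669a-5p and miR-669p-5p, outside the rule for named members and named after its value was seen, was 2.31-fold lower in resistance than in aerobic plasma, at 2.9 and 6.7. Each rests on spots under 10 SD on both arrays, and on differences in raw intensity of 116.5 against 100.4, 97.2 against 100.3, and 97.0 against 104.1. The control spots of miR-466c-5p and miR-669e-5p lay under 101.2, the threshold given there by the spots without a probe.

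Among members above 10 SD on both arrays, 0 reached 2-fold on the authors' scale in any comparison. The 11 such members ranged from -0.19 to 0.41 (log2, authors' values) for aerobic minus control. The 13 for resistance minus control ranged from -0.32 to 0.62, with miR-669f-5p at the top, and the 11 for resistance minus aerobic from -0.48 to 0.22. On the offset scale the same members lay between -0.15 and 0.22 over all 3 comparisons. For those under 10 SD the authors' values spread from -0.81 to 1.02, from -1.18 to 0.49 and from -1.21 to 0.47 in the same order.

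**Figure D4:**
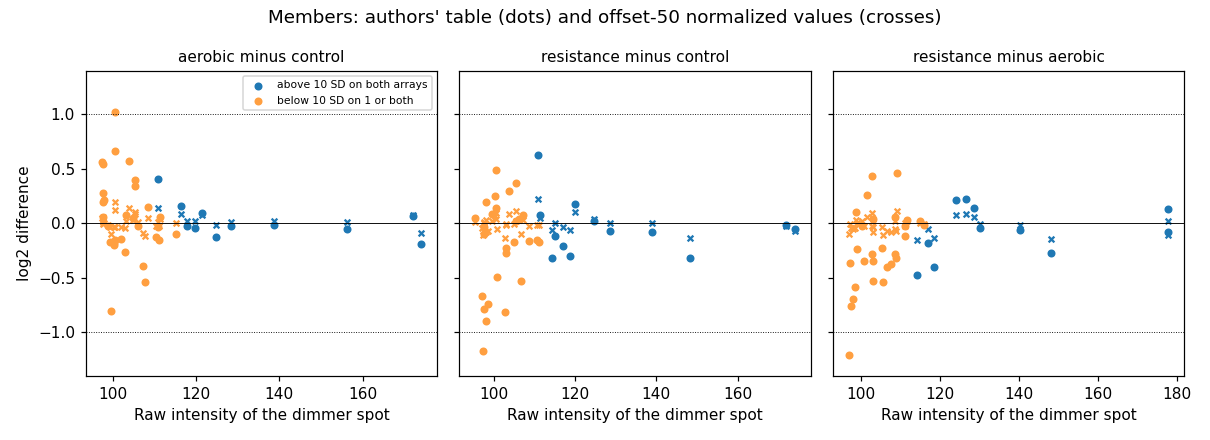
Difference in log2 intensity of each compared member against the raw intensity of its dimmer spot, from the authors' normalized values (dots) and from the offset-50 normalized values (crosses), for the 3 comparisons; blue members were above 10 SD on both arrays, orange ones were not, and dotted lines mark 2-fold. The dots past 2-fold, 1 in each comparison, are orange and sit at raw intensities near 100.

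Some miRNAs of blood cells, liver and muscle differed more between the same arrays on the offset scale. The 3 erythrocyte markers miR-451a, miR-144-3p and the miR-486 probe were detected in all pools, with a summed raw intensity of 6408 in aerobic, 5859 in resistance and 3532 in control plasma, and stood 0.26 to 0.40 (aerobic) and 0.44 to 0.75 (resistance) above control. Liver miR-122-5p stood at 0.68 and 0.22 above control in the same order. Muscle miR-133a-3p stood at -1.55 and -0.77 and miR-1a-3p at -0.99 and -0.20 against control. Muscle miR-206-3p, not detected in aerobic plasma, stood at -0.18 and -0.06. Of the platelet and myeloid markers, miR-126a-3p stood at 0.24 and 0.45 and miR-223-3p at 0.01 and -0.06. On the offset scale the repeats lay within 0.22 of control, and the part of blood cell content in their values was not tested. These ranges are not like for like, since the offset shrinks differences of dim probes most. In control plasma miR-451a read 3056, although miR-144-3p, at 118.4, was nearer the members. In the authors' values single members reached 1.02 (aerobic) and -1.18 (resistance) against control.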

How the data were processed

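RNA from 3 plasma pools, 1 per group, was labelled with Cy5 and read on 3D-Gene miRNA arrays, per the labels' protocols. The authors deposited the raw intensity of 3200 spots per array, a background-subtracted intensity and a globally normalized intensity, per the file headers. From the values, the authors subtracted 1 background per array, left spots near it empty and scaled the median detected miRNA to 25. Their value table repeats this to within 0.05, on a linear scale. The labels name neither the scanner nor its software. Background was the mean of 896 blank spots, trimmed by 5% at each end to 806. With that mean as background, normexp correction (limma 3.58.1, run in R 4.3.3; offset 50) was applied to raw intensities, and the 1900 miRNA probes were quantile normalized on the log2 scale. Steps were tested on simulated data with changes placed only in brighter probes, so that test does not cover changes at the level of most members. The spike-in spots had a pooled SD of 0.11 (log2), the dimmer S-Probe7 spots of 0.15 and those of Negative Control 1 of 0.27, giving limits of 0.32, 0.43 and 0.77 for a difference. With 1 array a group there is no test, and the number of arrays limits precision. Members, lists and rules were chosen with earlier results of these data known. Named members were the 5 brightest of each arm, the 4 largest differences on each side of each comparison, the 2 largest bounds, and the brightest of each family. Alternatives covered the offset, background, scaling, detection, the authors' values and shared probes.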

Additional observations from a re-analysis of the deposited data

How the results depend on the processing

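No paired analysis was possible because each group has 1 array and no test was run, and no replicate could be left out. Of 198 recomputed medians and counts, 163 kept their value within the limits set (1 SD of spot scatter for a median, 1.5 times for a count) and 35 moved. For named members 572 of 701 recomputed differences kept their value and 129 moved. No member difference was past the spike limit, so none had a called direction to lose, but signs did turn, in 57 of the 701 and in 11 of 81 medians. Of the 57, 26 turned without scaling, 14 in the authors' values, 13 with scaling to the median and 4 with blank subtraction. Among them, miR-466h-3p for aerobic minus control stood at 0.20 and miR-467g at 0.05 without scaling. The members' median for aerobic minus control was -0.01 with scaling to the median and -0.02 in the authors' values. At 10 SD the members detected numbered 11 in aerobic, 13 in resistance and 19 in control plasma. Of all probes 42.5%, 46.6% and 52.1% were detected in the same order, against 15.5%, 18.3% and 26.8% of members. The 10 SD threshold itself fell, from 123.4 in aerobic to 111.7 in resistance and 106.1 in control plasma. With spots without a probe as background 27 members were detected in control plasma, against 45, and 59.1% of all probes, against 75.3%. Without scaling the aerobic minus control median was 0.18 for all members, 0.17 for 5p and 0.20 for 3p, where the median of all probes was 0.20. The 3p median for resistance minus aerobic was -0.26 with blank subtraction and -0.30 in the authors' values. With blank subtraction and in the authors' values alike, 1 member was 2-fold higher for aerobic minus control, 1 was 2-fold lower for resistance minus control, and 1 was 2-fold lower for resistance minus aerobic. Beyond the spike limit for aerobic minus control lay 4 members higher and 2 lower with an offset of 0, 8 and 3 with blank subtraction, 8 and 3 in the authors' values and 3 higher without scaling. Over all probes 19.3%, 30.1%, 32.2% and 19.3% lay beyond it in the same order, against 14.6%, 26.8%, 26.8% and 7.32% of members. For resistance minus control these were 3 and 3, 5 and 8, and 3 and 8 in the same order of the first 3 settings (15.0%, 32.5% and 27.5% of members, against 22.2%, 34.3% and 39.0% of all probes). For resistance minus aerobic they were 2 and 3, 3 and 10, and 2 and 13, with 1 lower without scaling (12.8%, 33.3%, 38.5% and 2.56% of members, against 16.8%, 27.3%, 28.0% and 19.1% of all probes). The spike limit comes from bright spots on the offset scale, and the median member was dimmer than the median probe. A smaller offset widens differences of dim spots by construction. For scaling, the cause was not tested. Detection above the spots without a probe, as a filter, was added after seeing the data and left 0 members beyond the limit. Signal close to background limits what can be seen.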
